A study of Mus musculus with 6 samples.

Results

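The genes described here lie in the same region of mouse chromosome 6, with other genes between some of them. They are *Repin1*, *Zfp775* and *AI854703*, which follow each other on the plus strand, and 5 flanking genes, *Zfp746*, *Zfp467*, *Atp6v0e2*, *Lrrc61* and *Rarres2*. The 8 genes were chosen by symbol for their position and for their difference between *T-UCstem1* KD-1 and Control (NT) gastruloids, so that difference is given for each of them as a description, without a test. They are 8 of 35565 genes in the table, and 7 of the 8 had enough counts to enter the fit of 15110 genes. *Rarres2* did not.

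Gastruloids are aggregates of mouse embryonic stem cells that elongate and form tissues along an anteroposterior axis. Both groups were grown from the TBV2 129/SvP embryonic stem cell line, received 3 µM CHIR99021, a WNT signalling agonist, and were collected at day 5, with 3 biological replicates each by the submitters' account. Control (NT) came from non-targeting cells, whose genotype the labels give as WT, and KD-1 came from 1 stem cell clone in which the lncRNA *T-UCstem1* was knocked down. Each group is 1 cell line, so a difference between the lines and an effect of the silencing cannot be told apart. *T-UCstem1* RNA was not analysed here.

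The products of these genes belong to several classes. *Repin1*, *Zfp775*, *Zfp467* and *Zfp746* encode C2H2 zinc finger proteins, a class of nucleic acid binding proteins that is often encoded in runs of adjacent genes. *Rarres2* encodes chemerin, a secreted ligand of G protein-coupled receptors. *Atp6v0e2* encodes a small subunit of the membrane sector of the vacuolar ATPase (V-ATPase), the pump that acidifies lysosomes and other compartments, and *Lrrc61* encodes a leucine-rich repeat protein. No function is assumed here for *AI854703*.

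On GRCm39 in GENCODE vM39, which may not be the annotation the authors used, the genes follow in the order *Zfp746* (chr6:48038681-48063679), *Zfp467* (chr6:48400971-48422781), *Atp6v0e2* (chr6:48514504-48522309), *Lrrc61* (chr6:48531711-48547656), *Rarres2* (chr6:48546630-48549762), *Repin1* (chr6:48570432-48577456), *Zfp775* (chr6:48578936-48600161) and *AI854703* (chr6:48603578-48610626). *Zfp746*, *Zfp467* and *Rarres2* are on the minus strand and the other genes on the plus strand. *Repin1* ends 1479 bp before *Zfp775*, which ends 3416 bp before *AI854703*, and the 3 genes together span 40.2 kb. *Rarres2* ends 20.7 kb before *Repin1*, and it overlaps *Lrrc61*, on the opposite strand, by 1027 bp. To the right of *AI854703*, the next gene of the table is *Gimap8*, 13.5 kb away. All 8 genes are annotated as protein coding.

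The upstream sequences of 3 genes are shown because they stand for the 3 patterns found, *Zfp775* for a gene higher in KD-1, *Zfp467* for one lower in KD-1 and *Atp6v0e2* for one with a small difference. They are the 250 bases before the RefSeq start on GRCm38.p6, read 5′ to 3′ on the strand of the gene. Their intervals are chr6:48601757-48602006 (plus strand), chr6:48445091-48445340 (minus strand) and chr6:48537319-48537568 (plus strand). Capitals mark CCAAT and GGGCGG, searched on both strands, so that ATTGG and CCGCCC are capitals too.
Zfp775: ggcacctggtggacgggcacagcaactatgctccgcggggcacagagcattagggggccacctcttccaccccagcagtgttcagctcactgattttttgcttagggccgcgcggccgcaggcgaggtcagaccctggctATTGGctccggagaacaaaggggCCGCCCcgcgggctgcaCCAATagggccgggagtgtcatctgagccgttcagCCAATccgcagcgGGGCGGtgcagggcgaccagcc
Zfp467: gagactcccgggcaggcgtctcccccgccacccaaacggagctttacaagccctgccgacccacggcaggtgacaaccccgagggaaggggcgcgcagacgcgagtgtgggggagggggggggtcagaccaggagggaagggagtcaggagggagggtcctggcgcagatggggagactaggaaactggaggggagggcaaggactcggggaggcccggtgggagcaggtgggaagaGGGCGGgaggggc
Atp6v0e2: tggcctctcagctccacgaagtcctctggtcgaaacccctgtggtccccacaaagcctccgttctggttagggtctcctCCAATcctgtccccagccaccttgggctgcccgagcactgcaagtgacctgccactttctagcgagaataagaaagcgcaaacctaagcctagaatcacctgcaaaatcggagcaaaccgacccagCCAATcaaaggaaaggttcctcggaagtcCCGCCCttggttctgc

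RefSeq start windows were at hand for 4 of the 8 genes, these 3 and *Zfp746*, and not for *Repin1*, *AI854703*, *Lrrc61* or *Rarres2*. In windows of 250 bases before to 50 after the start, GGGCGG was found in all 4 of these genes and in 35.7% of 32851 windows of all genes. CCAAT was found 4 times in the window of *Zfp775* and 2 times in that of *Atp6v0e2*, and in neither of the other two. Of all windows, 37.4% held CCAAT and 1.06% held it at least 4 times. The G and C content was 68% for *Zfp775*, 69.7% for *Zfp467*, 57.7% for *Atp6v0e2* and 74.3% for *Zfp746*, against a median of 52.7% over all windows. AGGTCA was found in the windows of *Zfp775* and *Atp6v0e2* (16.3% of all windows), TATAAA in that of *Zfp746* (13.6%), and CCGGAA and CACGTG in none of the 4 (14.9% and 7.15%). These matches describe letters in the windows only.

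The libraries held 20982249 to 85561026 counts each, and are named by their depth within their group (lowest, middle, highest). The groups differed in tissue markers. Summed somite markers lay between 439 and 510 CPM, counts scaled by library size, in Control (NT) and between 3.45 and 3.74 in KD-1, with 7 of 7 tested markers lower. Naive pluripotency markers lay between 1160 and 1200 CPM in Control (NT) and between 2580 and 2660 in KD-1 (7 of 8 higher), and neural markers between 42.9 and 46.8 and between 234 and 237 (5 of 6 higher). Feeder fibroblast markers summed to 8.34 to 9.17 CPM in Control (NT) and 0.817 to 1.03 in KD-1, with 3 of 4 tested markers lower. The fourth, *Thy1*, had 17 counts in Control (NT) and 72 in KD-1 (log2 fold change 1.59, adjusted p = 0.083), and the untested *Lum* and *Postn* were at 0 counts in KD-1. Caudal epiblast markers (2 of 6 higher, 2 lower), endoderm markers (2 of 3 tested higher, 1 lower) and blood and immune markers (7.66 to 7.92 against 8.23 to 9.16 CPM; of 2 tested, 0 called and 1 past the adjusted p but under the fold threshold) changed in both directions or were not called. The endoderm markers called higher were *Epcam* and *Trh*, while *Cer1* fell from 1603 counts in Control (NT) to 10 in KD-1. Of the untested endoderm markers, *Sox17* (22 to 1 counts) and *Gata6* (31 to 8) were lower in KD-1 and *Foxa2* (4 to 20) was higher. In bulk samples, fewer cells of a type and less RNA per cell cannot be told apart, and the part of tissue makeup in the differences below was not tested. The middle-depth Control (NT) library differed most from the other two of its group (chi-square per degree of freedom of 36.3 and 36.5, against 15.3 between the others).

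*Repin1*, whose product is named as a replication initiator, was close to 0 in Control (NT) and higher in KD-1. Its counts were 7, 20 and 15 in the lowest, middle and highest depth libraries of Control (NT), and 636, 642 and 1174 in those of KD-1. Normalized to depth, these were 0.337, 0.591 and 0.271 CPM in Control (NT) against 15.2, 14.8 and 13.5 CPM in KD-1. Every KD-1 library stood far above every Control (NT) library, and the 3 KD-1 libraries were close to each other. The means were 0.4 ± 0.169 CPM (SD, n = 3) in Control (NT) and 14.5 ± 0.861 CPM (SD, n = 3) in KD-1, which is 37.1-fold higher (log2 fold change 5.21, SE 0.22). The ratio of the group CPM values from summed counts was 37.3, with a 95% interval of 27.5 to 51.8 that covers counting error only. Among the 15110 genes tested, *Repin1* ranked 110 from the highest log2 fold change.

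*Zfp775*, the next gene to the right, had 3, 0 and 4 counts in the lowest, middle and highest depth Control (NT) libraries. In KD-1 it had 138, 151 and 281 counts, which is 3.29, 3.47 and 3.23 CPM. The groups did not overlap, and the Control (NT) libraries were at or close to 0. The mean was 0.0723 ± 0.0723 CPM in Control (NT) and 3.33 ± 0.123 CPM in KD-1 (SD, n = 3 each), with a log2 fold change of 5.64 (SE 0.45). On 7 Control (NT) counts in all, the ratio of the group CPM values was 52, with a 95% counting interval of 25.1 to 130.

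*AI854703* was listed at 0 counts in all 3 Control (NT) libraries. In KD-1 it had 63, 74 and 138 counts, or 1.5, 1.7 and 1.59 CPM in the lowest, middle and highest depth libraries. A count of 0 over the summed Control (NT) libraries allows up to 0.0273 CPM, taking 3 counts over the group as the limit. *AI854703* had a mean of 1.6 ± 0.0994 CPM (SD, n = 3) in KD-1. It thus stood 58.5-fold above this limit there, a bound of 5.87 on the log2 scale. The bound leaves out the counting error of the KD-1 counts.

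The relative amounts of the 3 genes were close to each other in the KD-1 libraries. *Repin1* made up 76%, 74% and 73.7% of the summed counts of the 3 genes in the lowest, middle and highest depth KD-1 libraries. *Zfp775* made up 16.5%, 17.4% and 17.6%, and *AI854703* 7.53%, 8.54% and 8.66%. Over the 49 counts of all Control (NT) libraries, the share of *Repin1* was 85.7% (exact 95% binomial interval 72.8 to 94.1) and that of *Zfp775* 14.3% (5.94 to 27.2). The share of *AI854703* there was 0 of 49 counts, with an upper limit of 7.25%, against 8.34% (7.42 to 9.34) in the summed KD-1 libraries. In the single lowest, middle and highest depth Control (NT) libraries, its upper limits were 30.8%, 16.8% and 17.6%, all above that KD-1 share. The share of *Repin1* in these was 70%, 100% and 78.9%, on 10, 20 and 19 counts. The intervals cover counting error only, and a difference in these shares between the groups was not tested. Shares of counts are not corrected for gene length.

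**Figure D1:**
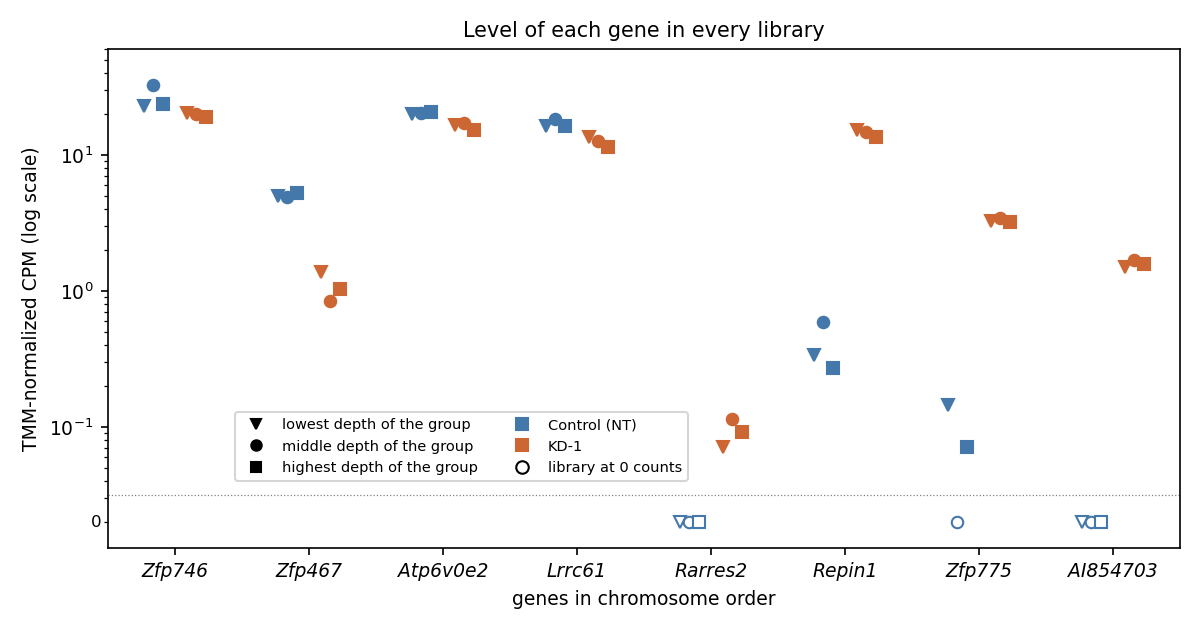
Level of each of the 8 genes in each of the 6 libraries, in TMM-normalized CPM on a log axis, with open symbols at the foot for libraries at 0 counts. Levels of different genes are not comparable here, since they are not divided by length. For *Repin1*, *Zfp775*, *AI854703* and *Rarres2* every KD-1 library lies above every Control (NT) library, and for the other 4 genes every KD-1 library lies below.

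Left of *Repin1*, *Rarres2*, the chemerin gene, was at 0 counts in all Control (NT) libraries and had 3, 5 and 8 counts in the lowest, middle and highest depth KD-1 libraries. These counts correspond to 0.0715, 0.115 and 0.0921 CPM. With the same limit of 3 counts over the Control (NT) group, the bound on its fold change was 3.4, on 16 counts in all. This bound leaves out the counting error of those 16 counts. *Rarres2* was too low to be tested. Of its distinct 31-base words, 26.5% also occur in *Lrrc61*, on the other strand, and whether counting used strand is not given in the sources used here, so reads of the overlap cannot be assigned with confidence.

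*Zfp467*, a zinc finger gene known from marrow stromal cells, went the other way. It had 103, 166 and 293 counts in the lowest, middle and highest depth Control (NT) libraries, or 4.97, 4.91 and 5.29 CPM. In KD-1 it had 58, 37 and 90 counts, or 1.38, 0.85 and 1.04 CPM. All KD-1 libraries were below all Control (NT) libraries. The mean was 5.05 ± 0.204 CPM in Control (NT) and 1.09 ± 0.27 CPM in KD-1 (SD, n = 3 each), which is 4.66-fold lower in KD-1 (log2 fold change −2.22, SE 0.20).

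The remaining 3 genes differed little. *Lrrc61* was at 16.4, 18.4 and 16.5 CPM in the lowest, middle and highest depth Control (NT) libraries and at 13.6, 12.7 and 11.5 CPM in KD-1 (log2 fold change −0.44, SE 0.10). *Atp6v0e2* was at 20.2, 20.4 and 20.9 CPM in Control (NT) and at 16.7, 17.2 and 15.4 CPM in KD-1 (log2 fold change −0.32, SE 0.08). *Zfp746*, which encodes a zinc finger repressor, was at 23.1, 32.9 and 23.9 CPM in Control (NT) and at 20.4, 19.9 and 19.1 CPM in KD-1 (log2 fold change −0.43, SE 0.13). In each of the 3 genes the KD-1 libraries were all below the Control (NT) libraries, and the middle-depth Control (NT) library was the highest for *Zfp746* and *Lrrc61*. Without that library the log2 fold change of *Zfp746* was −0.26, that of *Repin1* 5.62 and that of *Zfp775* 5.13.

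A gene was called where the adjusted p was under 0.05 and the fold change over 1.5 or under 0.667. By this rule, 3 of the 7 tested genes were called higher in KD-1 (*Repin1*, *Zfp775* and *AI854703*) and 1 was called lower (*Zfp467*), where 37.7% of all genes tested were called, 19.7% higher and 18.1% lower. The groups did not overlap for any of the 8 genes, 4 with KD-1 above and 4 with KD-1 below, where 70.6% of all genes tested did not overlap, 35.3% in each direction. Since the genes were chosen on this contrast, nothing is read from these counts.

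Per kilobase of exon, the order of the genes differed between the groups. In Control (NT), *Lrrc61* was highest at 5.47 ± 0.37 CPM per kb, followed by *Zfp746* (2.97 ± 0.603) and *Atp6v0e2* (2.9 ± 0.0525), whose ranges overlapped. *Zfp467* (0.538 ± 0.0217), *Repin1* (0.0667 ± 0.0282) and *Zfp775* (0.0166 ± 0.0166) came next, and *Rarres2* and *AI854703* were at 0. In KD-1, *Lrrc61* was again highest at 4.04 ± 0.344 CPM per kb. *Repin1* (2.42 ± 0.144), *Atp6v0e2* (2.32 ± 0.137) and *Zfp746* (2.21 ± 0.0713) overlapped in their libraries, so *Repin1* could not be ordered against these flanking genes in KD-1. Below them were *Zfp775* (0.764 ± 0.0282), *AI854703* (0.342 ± 0.0213), *Zfp467* (0.116 ± 0.0288) and *Rarres2* (0.0318 ± 0.00742), without overlap between neighbours in this order. With the longest transcript as the length, the mean of *Zfp746* was above that of *Lrrc61* in Control (NT) (5.91 against 5.72 CPM per kb). The same held in KD-1 (4.39 against 4.22). The libraries of these genes overlapped in both groups, so they could not be ordered. By means, 5 of the 8 genes kept their place in the KD-1 order.

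**Figure D2:**
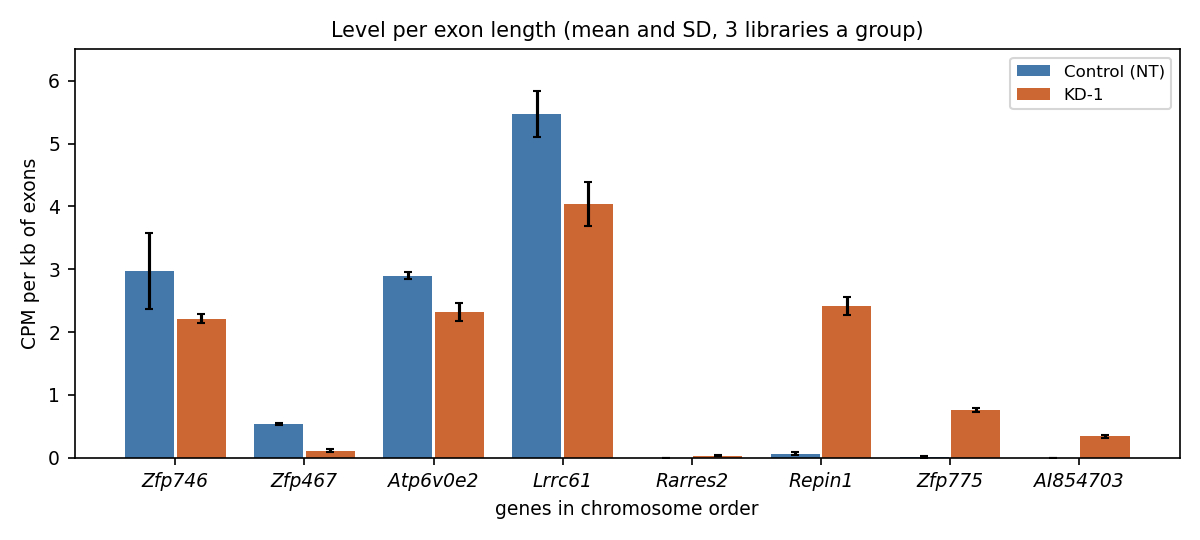
Mean level of each gene in CPM per kilobase of exon (union of annotated exons), with the SD over 3 libraries as error bars, for Control (NT) and KD-1, in chromosome order. *Repin1* stands at 0.0667 CPM per kb in Control (NT) and at 2.42 in KD-1, beside *Atp6v0e2* at 2.9 and 2.32.

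Sequence shared between genes sets how far reads can be assigned. Of the distinct 31-base words of the *Repin1* transcripts, 4.92% occur in another annotated gene, nearly all of them (298 of 301) in *Gm44965*, a gene annotated across the same interval. For *Zfp775* the share was 19.6%, and 3.21% when only words on the same strand were counted, since 642 of the shared words lie in the antisense lncRNA *Gm38804*. *Gm38804* is not among the genes of the table, so no counts are listed for it. *AI854703* shared none of its 4752 words. The readthrough genes annotated over *Repin1* and *Zfp775* had no counts in the case of *Gm45021* and 1 count, in a KD-1 library, in the case of *Gm44965*. Of the other genes, *Lrrc61* shared 28.1% of its words, mostly with *Rarres2*, *Atp6v0e2* 16.8%, *Zfp467* 1.77% and *Zfp746* 0.702%. Of the 1235 shared words of *Atp6v0e2*, 937 lie in the antisense lncRNA *Gm67220*, which is not among the genes of the table either.

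The genes around the 8 were compared in the same fit, to see whether the difference reached further along the chromosome. Within 1 Mb of the outermost of the 8 genes, the table held 59 other genes, of which 22 were at 0 in every library and 27 were tested. Of these 27, 4 were higher and 7 lower in KD-1 (40.7% called, against 37.7% of all genes tested), and their median log2 fold change was −0.02, against −0.01 over all genes tested. On the *Zfp746* side of *Repin1*, 1 of 15 tested genes was higher and 5 lower. On the *AI854703* side, 3 of 12 were higher and 2 lower. Over chromosome 6 without the 8 genes, these neighbours included, 141 of 719 tested genes were higher and 126 lower (37.1% called), with a median log2 fold change of 0.000223.

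Of the genes next to the 8, *Zfp777* was called and the others were not. *Gimap8*, a GTPase gene beside *AI854703*, had 19, 3 and 35 counts in the lowest, middle and highest depth Control (NT) libraries and 29, 42 and 78 in KD-1 (log2 fold change 0.70, SE 0.59, adjusted p = 0.32), and its groups overlapped in CPM. *Krba1* and *Sspo*, which enclose *Zfp467*, had log2 fold changes of −0.02 (SE 0.10, adjusted p = 0.86) and −0.12 (SE 0.39, adjusted p = 0.81). *Zfp862-ps*, left of *Atp6v0e2*, had a log2 fold change of −0.20 (SE 0.09, adjusted p = 0.083). *Gm7887*, which lies within *Zfp862-ps* on the other strand, had one of −0.34 (SE 0.11, adjusted p = 0.026), below the fold threshold. *Gm7880*, right of *Zfp746*, was at 0 in all libraries. *Zfp777*, the zinc finger gene beside *Zfp746*, fell from 22.6 ± 0.439 to 13 ± 0.0698 CPM (SD, n = 3 each; log2 fold change −0.80, adjusted p = 1.7e-05).

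Further out on the *Zfp746* side, *Zfp783* rose (log2 fold change 1.09, SE 0.21, adjusted p = 0.0019), while *Zfp282* (−0.96, adjusted p = 2.5e-05) and *Zfp212* (−0.60, adjusted p = 2.8e-04) fell. *Zfp212* stood close to the threshold of 1.5-fold and was not called when the middle or highest depth Control (NT) library or the lowest or highest depth KD-1 library was left out, with log2 fold changes between −0.58 and −0.56. It was also not called by DESeq2 (−0.57), with RLE factors (−0.57), with library size only (−0.54) or with at least 10 counts in every library (−0.55). *Pdia4*, which encodes a protein disulfide isomerase of the endoplasmic reticulum, fell from 219 ± 8.18 to 116 ± 2.03 CPM (log2 fold change −0.91, adjusted p = 1.9e-06). *Cntnap2*, a neuronal adhesion gene, fell from 14.9 ± 1.31 to 5.51 ± 0.422 CPM (log2 fold change −1.43, adjusted p = 8.7e-06).

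On the *AI854703* side, *Gimap9*, a second GTPase gene of the *Gimap* cluster, rose from 1.74 ± 0.232 to 3.77 ± 0.358 CPM (log2 fold change 1.13, SE 0.17, adjusted p = 5.2e-04). In the same cluster, *Gimap4* (12 to 0 counts) and *Gimap6* (19 to 0) were lower in KD-1 and too low to be tested. *Gimap1* (21 to 65 counts, adjusted p = 0.14) was higher and not called. The adjacent membrane protein genes *Tmem176b* and *Tmem176a* fell, from 18.7 ± 1.47 to 1.05 ± 0.198 CPM (log2 fold change −4.11, adjusted p = 1.4e-07) and from 7.99 ± 0.501 to 0.543 ± 0.0128 CPM (−3.87, adjusted p = 2.1e-07). The same region thus held large changes in both directions. *Stk31*, a germ cell gene, rose from 1.22 ± 0.0716 to 13.9 ± 0.571 CPM (log2 fold change 3.49, SE 0.12, adjusted p = 1.0e-07). *Gpnmb*, a lysosomal and melanosomal glycoprotein gene, rose from 0.124 ± 0.108 to 0.801 ± 0.142 CPM (log2 fold change 2.66, SE 0.65, adjusted p = 0.0063), on 4, 0 and 10 Control (NT) counts. Its log2 fold change was 3.34 without the highest depth Control (NT) library and 2.11 without the middle one.

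**Figure D3:**
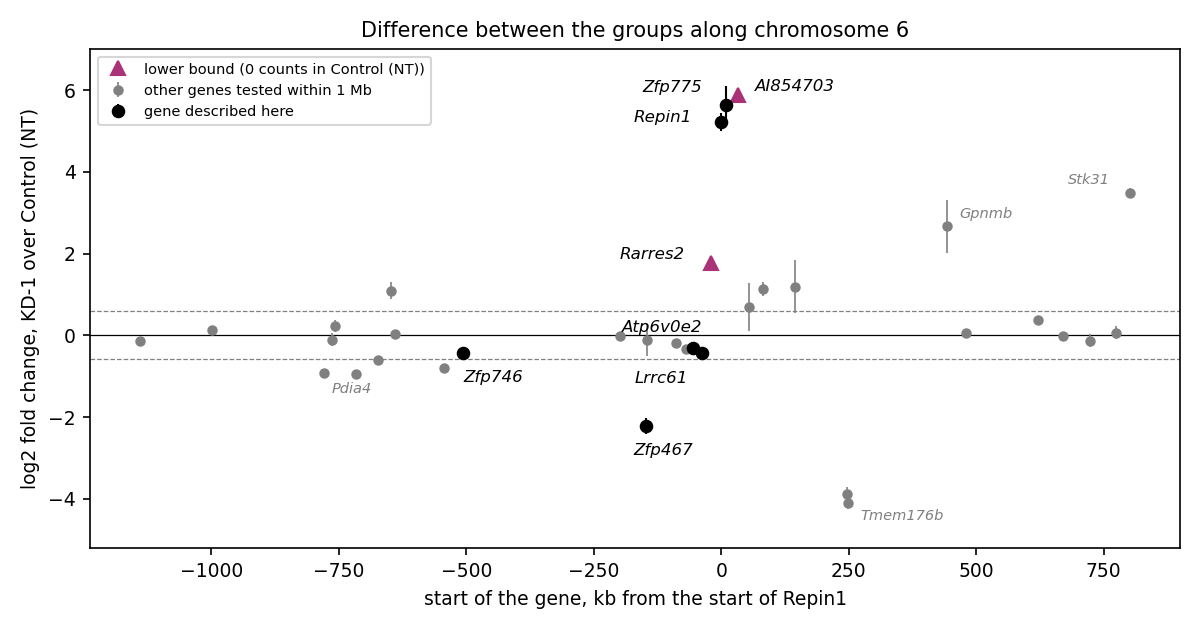
Log2 fold change of KD-1 over Control (NT) against the distance of each gene's start from that of *Repin1*, for the 8 genes (black, or triangles for lower bounds) and other tested genes within 1 Mb (grey); bars are standard errors, dashed lines mark 1.5-fold, and *Cntnap2*, which starts outside the axis, is not drawn. *Repin1* stands at 5.21 and *Zfp775* at 5.64, and the triangle of *AI854703* marks a lower bound of 5.87, while *Atp6v0e2* and *Lrrc61* lie within the dashed lines and *Tmem176b* at −4.11.

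As a description of the run of higher genes, all 15009 sets of 3 consecutive tested genes were ranked by the smallest log2 fold change of the 3. *Repin1*, *Zfp775* and *AI854703*, with a smallest value of 5.21, ranked 8, and 57 sets had a smallest value over 2. The sets ranked above it were made of genes of the repeated families *Alyreffm*, *Zscan4* and *Eif1ad*, next to each other on their chromosomes. Sets can share genes, so a longer run, such as that of *Eif1ad*, fills several ranks. *Repin1*, *Zfp775* and *AI854703* were chosen on this contrast, so nothing is read from their rank.

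The genes whose pattern over the 6 libraries was most like that of *Repin1* were *Smad7*, an inhibitor of TGFβ signalling (Pearson r of log2 CPM 0.9997), *Fgf15*, an FGF ligand (0.9996), *Mycn*, a MYC family transcription factor (0.9996), *Lactb2*, a nuclease (0.9996), and *Prmt8*, an arginine methyltransferase (0.9995). The 6 libraries fall into 2 groups, and 502 of 14794 genes had r over 0.99. Among the 8 genes, r with *Repin1* was 0.99 for *AI854703*, 0.94 for *Zfp775*, −0.98 for *Zfp467*, −0.94 for *Atp6v0e2*, −0.89 for *Lrrc61* and −0.71 for *Zfp746*. *Smad7*, which followed it most closely, went from 9.37 ± 0.827 CPM in Control (NT) to 20.1 ± 0.412 CPM in KD-1 (SD, n = 3 each), a far smaller ratio than that of *Repin1*.

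*Atp6v0e2* was set beside the other V-ATPase genes. Of 25 subunit genes, 21 were tested, of which 2 were higher and 6 lower in KD-1 (38.1% called, against 37.7% of all genes tested), with a median log2 fold change of −0.32, the value of *Atp6v0e2* itself, against −0.01 over all genes. *Atp6v0e*, the other e subunit gene, fell from 48.2 ± 4.5 to 31.2 ± 2.67 CPM (log2 fold change −0.63, adjusted p = 3.9e-04), but was below 1.5-fold without the middle-depth Control (NT) library (−0.58) or the highest depth KD-1 library (−0.56). With library size only as the normalization it was also below 1.5-fold (−0.57). In the membrane sector *Tcirg1*, an a subunit gene, fell by 1.72 (adjusted p = 6.4e-05) and *Atp6v0c*, the proteolipid gene, by 0.87 (adjusted p = 7.7e-04) on the log2 scale.

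In the V1 sector, the part that hydrolyses ATP, *Atp6v1g2* fell by 1.56 (adjusted p = 8.4e-04), *Atp6v1f* by 0.71 (adjusted p = 1.7e-04) and *Atp6v1g1* by 0.69 (adjusted p = 5.8e-04) on the log2 scale. *Atp6v1g1* was not called without the middle-depth Control (NT) library (−0.57). The 2 genes called higher are rarer forms of their subunits and were low throughout. *Atp6v0a4* rose from 0.188 ± 0.178 to 1.55 ± 0.0521 CPM (log2 fold change 3.14, SE 0.58, adjusted p = 0.0014), and its log2 fold change was 4.48 without the middle-depth Control (NT) library, which held 13 of its 18 Control (NT) counts, and 2.43 without the highest depth one. *Atp6v1c2* rose from 0.0682 ± 0.0594 to 0.504 ± 0.0236 CPM (log2 fold change 2.79, SE 0.64, adjusted p = 0.0048), on 8 Control (NT) counts, with 3.65 without the highest depth Control (NT) library. Under the fold threshold, *Atp6v1h* (84.1 to 122 CPM, log2 fold change 0.54, adjusted p = 5.1e-05) and *Atp6v1a* (132 to 165 CPM, 0.32, adjusted p = 0.0011) were also higher in KD-1. Other subunit genes under that threshold were lower, among them *Atp6v0d1* (−0.53, adjusted p = 9.4e-04) and *Atp6ap1* (−0.47, adjusted p = 2.1e-04).

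**Figure D4:**
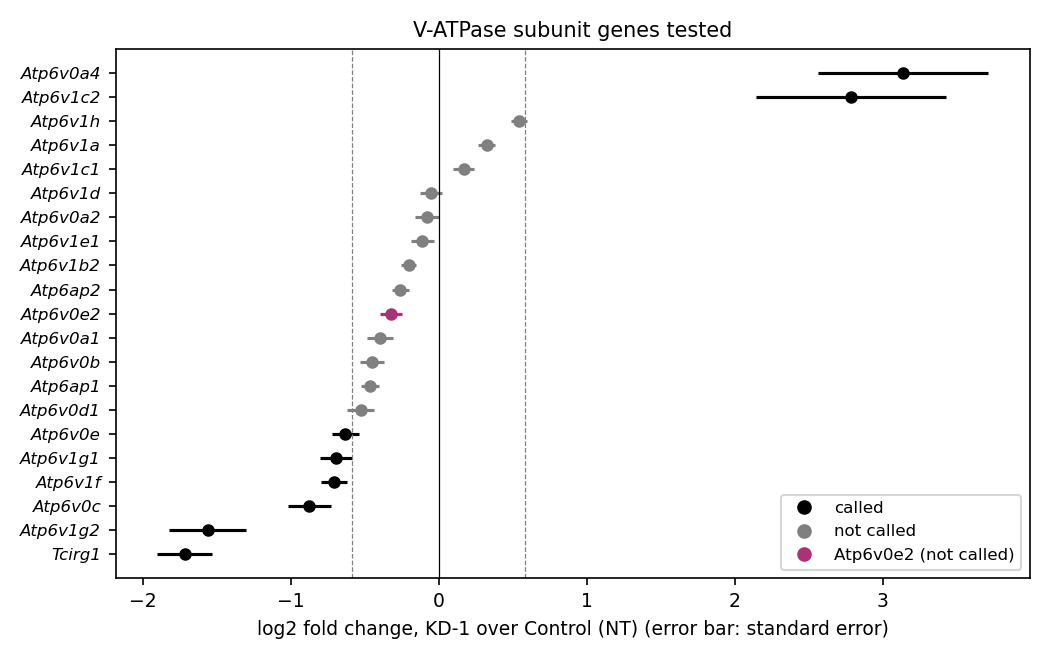
Log2 fold change of KD-1 over Control (NT) for the 21 tested V-ATPase subunit genes, ordered by value, with standard errors as bars and dashed lines at 1.5-fold. *Atp6v0e2*, at −0.32, lies in the middle of the list, between *Atp6v0a4* at 3.14 and *Tcirg1* at −1.72.

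For *Rarres2*, the genes of the chemerin receptors were read in the same fit. *Cmklr2* rose from 30 counts in all Control (NT) libraries to 198 in KD-1 (log2 fold change 2.07, SE 0.37, adjusted p = 0.0013). *Cmklr1*, the main signalling receptor, went from 10 to 64 counts (log2 fold change 1.97, SE 0.74, adjusted p = 0.043), but was not called without the highest depth Control (NT) library (1.92, adjusted p = 0.13) or without the lowest (1.96, adjusted p = 0.11), middle (1.90, adjusted p = 0.12) or highest depth KD-1 library (2.03, adjusted p = 0.11). Without the lowest depth Control (NT) library its log2 fold change was 2.75 (adjusted p = 0.018), and it was not called by DESeq2 (adjusted p = 0.058) or without the low-count filter (adjusted p = 0.07). *Ccrl2* had 1 count in each group. The ligand and its receptors were thus all at few counts.

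For *Zfp746*, whose product is known to repress *Ppargc1a*, that gene and *Nrf1*, which encodes a factor that works with the product of *Ppargc1a*, were read. *Nrf1* was at 45.6 ± 1.86 CPM in Control (NT) and 46.2 ± 1.76 CPM in KD-1 (SD, n = 3 each; log2 fold change 0.02, SE 0.06, adjusted p = 0.83). *Ppargc1a* had 16 counts in Control (NT) and 7 in KD-1, too few to be tested.

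Other genes with a *Zfp* symbol, taken by symbol alone, gave the background for *Zfp775*, *Zfp467* and *Zfp746*. Of 400 tested genes with a *Zfp* symbol other than these 3, 103 were higher and 52 lower in KD-1 (38.8% called, against 37.7% of all genes tested), with a median log2 fold change of 0.11. More of them were thus called higher than lower, where 19.7% of all genes tested were called higher and 18.1% lower. That difference in direction was not tested. Of the 8 such genes within 1 Mb of the chromosome 6 genes, all of which were tested, 1 was higher and 3 were lower. The higher gene, *Zfp783*, is annotated as a pseudogene, as is *Zfp862-ps*, which was not called.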

How the data were processed

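Bulk RNA-seq libraries (3 Control (NT), 3 KD-1) were sequenced as paired-end reads and, per the labels, converted with bcl2fastq and quantified with Salmon 1.1. The authors deposited estimated counts (expected counts) per Ensembl gene in whole numbers, without normalization. The species series and build of the Gencode gene model, the use of strand and the summing of transcripts to genes are not given in the sources used here. Salmon assigns reads by probability, so overlapping genes and near-identical copies can share counts. Library totals are listed in the text as a range, and intervals and limits cover counting error only. The bounds on fold changes leave out the counting error of the KD-1 counts. Column names give the group of a library but not its replicate number, so libraries are named by depth. Pairs of libraries of a group differed by more than sampling noise.

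Differences were fitted with edgeR 4.0.16 in R 4.3.3 (filterByExpr, TMM, robust quasi-likelihood fit and test, group as the only term), with Benjamini-Hochberg adjustment over 15110 genes. CPM values are TMM-normalized. A call needed an adjusted p under 0.05 and a fold change over 1.5 or under 0.667. DESeq2 1.42.0, limma 3.58.1 (voom), other normalizations, filters, thresholds and windows, and leaving out each library were alternatives. The edgeR fit was run on simulated data in which 200 genes changed by 1.5 on the log2 scale. It called 167 of these and 5 of 14710 unchanged genes. Far more genes were called in the real data, so the simulation does not show how the fit performs there. GENCODE vM39 names matched 35222 of 35565 identifiers, and its transcripts gave exon lengths and the 31-base words; start windows are from RefSeq.

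The members and lists were chosen with earlier results of these data known. Named were the 8 genes, the called neighbours within 1 Mb, the genes next to each of the 8, called genes of the V-ATPase, chemerin receptor and *Zfp746* lists, and the 5 genes most like *Repin1*. Members of marker lists at 0 and genes beside a count are named for those counts, after their values were seen. Other uncalled V-ATPase and *Gimap* genes were also named after their values were seen.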

Additional observations from a re-analysis of the deposited data

How the results depend on the processing

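No paired analysis was possible because the columns of the table do not carry the replicate numbers of the labels. Calls of the 8 genes are a description, since the genes were chosen on this contrast, and support nothing. With at least 10 counts in every library, a filter that cannot test genes near 0 in a group, 1 of the 8 was called, and with no fold threshold 7, *Lrrc61* (−0.44), *Atp6v0e2* (−0.32) and *Zfp746* (−0.43) included. *Rarres2*, given as a bound, had a fitted log2 fold change of 5.17 and was called without the low-count filter, and 4.13 and no call in DESeq2. The fitted log2 fold change of *AI854703* (9.23) ranged from 6.76 to 9.39 (8.23 in DESeq2 and 6.76 in voom), and the cause was not tested. Leaving out one library at a time gave log2 fold changes of 4.87 to 5.62 for *Repin1*, 5.13 to 6.16 for *Zfp775*, 8.98 to 9.39 for *AI854703*, −2.39 to −2.07 for *Zfp467*, −0.48 to −0.36 for *Lrrc61*, −0.34 to −0.26 for *Atp6v0e2* and −0.52 to −0.26 for *Zfp746*, with 4 of the 8 called each time.

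The count of all genes called was 3274 at an absolute log2 fold change over 1, 9597 with no fold threshold and 5176 to 6113 without one library. At a log2 fold change over 1, 7 neighbours (3 lower), 4 V-ATPase genes and 80 *Zfp* genes were called, and with no fold threshold 17 V-ATPase and 249 *Zfp* genes. A window of 2 Mb held 7 higher neighbours. Of the chemerin receptor genes, 1 was called by DESeq2, 1 without the filter, 0 with at least 10 counts and 1 to 2 without one library. The median log2 fold change of chromosome 6 without the 8 genes was 0.0917 in DESeq2, 0.0257 with RLE, −0.0119 with upper-quartile factors, 0.058 with library size only, 0.0732 without the filter, 0.0187 with at least 10 counts and −4.36e-05 to 0.0234 without one library. That of the neighbours was 0.054 in DESeq2, 0.0325 with library size only, 0.0349 without the filter and −0.113 to −0.00136 without one library. These medians lie close to 0, and the cause of their shifts was not tested. With the longest transcript 5 of the 8 genes kept their place in the KD-1 order of levels.

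Depth limits the Control (NT) values of *Repin1*, *Zfp775*, *AI854703* and *Rarres2*, which rest on 42, 7, 0 and 0 counts.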
